A study of Mus musculus with 4 samples.

Results

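The nuclear genes of oxidative phosphorylation were taken by symbol from a table of RNA levels in mouse hematopoietic stem and progenitor cells. The rule took every symbol that starts with Nduf, Uqcr or Atp5, the 4 succinate dehydrogenase genes Sdha to Sdhd, symbols that start with Cox4 to Cox8, and Cycs, without use of any measured value. It found 87 genes of 13749 in the table, and all 87 reached the mean of 1 FPKM (fragments scaled to transcript length and to the fragments of the library) that was asked of a gene before testing, as did 11083 genes in all. By role they were 36 subunits of complex I, 7 complex I assembly factors, 4 subunits of complex II, 8 of complex III, 15 genes of complex IV and 14 of complex V. The remaining 3 were Cycs, for the mobile carrier cytochrome c, and Atp5s and Atp5sl, which carry the Atp5 name but do not encode structural subunits of the enzyme.

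The cells were LSK cells, the marrow fraction without lineage markers that carries Sca-1 and Kit, sorted by flow cytometry from C57BL/6 mice aged 8 weeks. One group was wild type (WT, Asxl1+/+) and the other heterozygous for a frameshift knock-in of Asxl1 (KI, Asxl1G643fs/+, the G643fs allele), with 8 mice and 2 libraries per genotype. Libraries were numbered 1 and 2 in each group, and the labels do not say whether a library was 1 animal or a pool, or what the number marks. Each p-value given here therefore reflects how far these libraries spread, and that spread may be a technical one. The gate holds stem cells together with several kinds of progenitor, so that in these bulk samples fewer cells of a type and less RNA per cell cannot be told apart.

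Oxidative phosphorylation takes electrons from NADH at complex I and from succinate at complex II and passes them through coenzyme Q to complex III, then through cytochrome c to complex IV, where oxygen is reduced. Complexes I, III and IV pump protons out of the mitochondrial matrix, and complex V, the ATP synthase, lets them back to make ATP. All complexes but II are built from subunits encoded in the nucleus together with subunits encoded in mitochondrial DNA. Resting hematopoietic stem cells are known for leaning on glycolysis and for raising mitochondrial respiration as they leave quiescence and differentiate.

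Depth is unknown, since fragment counts were not used here. Total listed FPKM was 337313 for WT-1 and 324255 for KI-1 and higher, 402754 and 411542, for WT-2 and KI-2, so that the libraries numbered 2 stood above those numbered 1 in both genotypes. Asxl1 itself lay between 18.8 and 22.2 FPKM with overlapping groups, and a frameshift need not alter an mRNA level. All 10 markers of the gate and of stem cells were listed, with 1 of 10 higher in KI and a median log2 difference of -0.18 (-0.18 within number 1 and -0.22 within number 2). Kit stood at 81.9 to 105 FPKM and Ly6a, which encodes Sca-1, stood at 20.7 to 41.9. Of 8 granulocyte-monocyte markers 7 were higher in KI, with summed levels of 597 and 749.8 FPKM in WT and 1054 and 844 FPKM in KI, and all 6 B cell markers were higher, with 24.8 and 57.7 FPKM in WT and 30.8 and 98.7 FPKM in KI. Summed levels were 27.1 to 58.0 FPKM for 8 of 10 erythroid markers, 27.2 to 36.4 for 4 of 5 megakaryocyte markers and 9.75 to 17.2 for 4 of 7 T and NK cell markers, the others not being analysed here. No marker passed the test between genotypes at an adjusted p under 0.05. At an unadjusted p under 0.05 in limma were 4 of 8 granulocyte-monocyte markers, whose median log2 difference was 0.73. So was 1 of 5 tested erythroid markers, and 0 of the other tested markers, against 0.424% of all genes. The part of these cells in the values below was not tested.

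The respiratory genes were abundant in LSK cells. Their median level, as the mean over the 4 libraries, was 65.8 FPKM against 11.8 for all tested genes, and 31 of the 87 were above 100 FPKM while 9 were under 10. The median by complex was 159 FPKM for complex V, 136 for IV, 105 for III, 89.3 for II and 50.5 for the subunits of complex I. The complex I assembly factors, which are needed to build the enzyme but are not part of it, were far lower, with a median of 8.09 FPKM. FPKM is scaled to transcript length, and on that basis levels of different genes are set side by side here. The scaling need not remove every effect of length. Median transcript length was 809 bases for the members and 2848 for all tested genes with a length. It was 645 bases for complex IV and 1451 for the assembly factors, and the part of length in these levels was not tested.

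Levels within 1 complex were unequal. The highest member of all was Atp5j, for coupling factor 6 in the peripheral stalk of the ATP synthase, with 361 and 441 FPKM in WT-1 and WT-2 and 383 and 453 FPKM in KI-1 and KI-2. Atp5o, for the stalk subunit OSCP, had 333 and 375 FPKM in WT-1 and WT-2 and 399 and 417 FPKM in KI-1 and KI-2, and Atp5b, for the catalytic beta subunit, had 287 and 390.1 FPKM in WT-1 and WT-2 and 306 and 433 FPKM in KI-1 and KI-2. In complex III the hinge subunit gene Uqcrh led with a mean of 332 FPKM. The Rieske iron-sulfur protein gene Uqcrfs1 was the lowest member, with 48.4 FPKM. Cyc1, for the complex III subunit cytochrome c1, falls outside the rule by its symbol and had a mean of 33.1 FPKM. In complex I the accessory subunit genes Ndufb10, Ndufa6 and Ndufa12 led, with means of 235, 209 and 167 FPKM, while the 7 core subunit genes, which include those for the carriers of the flavin and the iron-sulfur clusters, spanned 30.5 to 79.2 FPKM. The spread from the lowest to the highest member was 2.51-fold in complex II, 6.85-fold in III, 8.91-fold in V, 45.2-fold in the complex I subunits and 261-fold in complex IV, whose lowest genes are tissue forms.

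Several subunits of complex IV and the c ring of complex V are encoded by more than 1 gene, with forms that other tissues use. In the Cox4, Cox6a and Cox6b pairs the general form led. Cox4i1, the general form of subunit 4, had 188 and 359 FPKM in WT-1 and WT-2 and 196 and 416 FPKM in KI-1 and KI-2, whereas Cox4i2, the form of lung and low oxygen, had 0.519 and 1.08 FPKM in WT-1 and WT-2 and 1.06 and 1.80 FPKM in KI-1 and KI-2. Cox6a1 had a mean of 136 FPKM and the heart and skeletal muscle form Cox6a2 had 2.80. The muscle marker Tnnt3, the one listed of 5, stood between 0.318 and 1.34 FPKM. Cox6b2, known as the testis form, was less far below its partner, with 31.1 FPKM against 170.1 for Cox6b1. Of the 3 genes for the c subunit, whose mature proteins are the same, Atp5g2 and Atp5g3 had means of 153 and 149 FPKM and Atp5g1 had 45.9. Cox7a2 had 33.6 FPKM, below Cox7a2l at 162, a gene known as a factor for supercomplexes of complexes III and IV. Whether its product acts so in these cells was not measured. Cox7a1, Cox7b2, Cox8b, Cox8c and Ndufa4l2 are not analysed here.

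**Figure D1:**
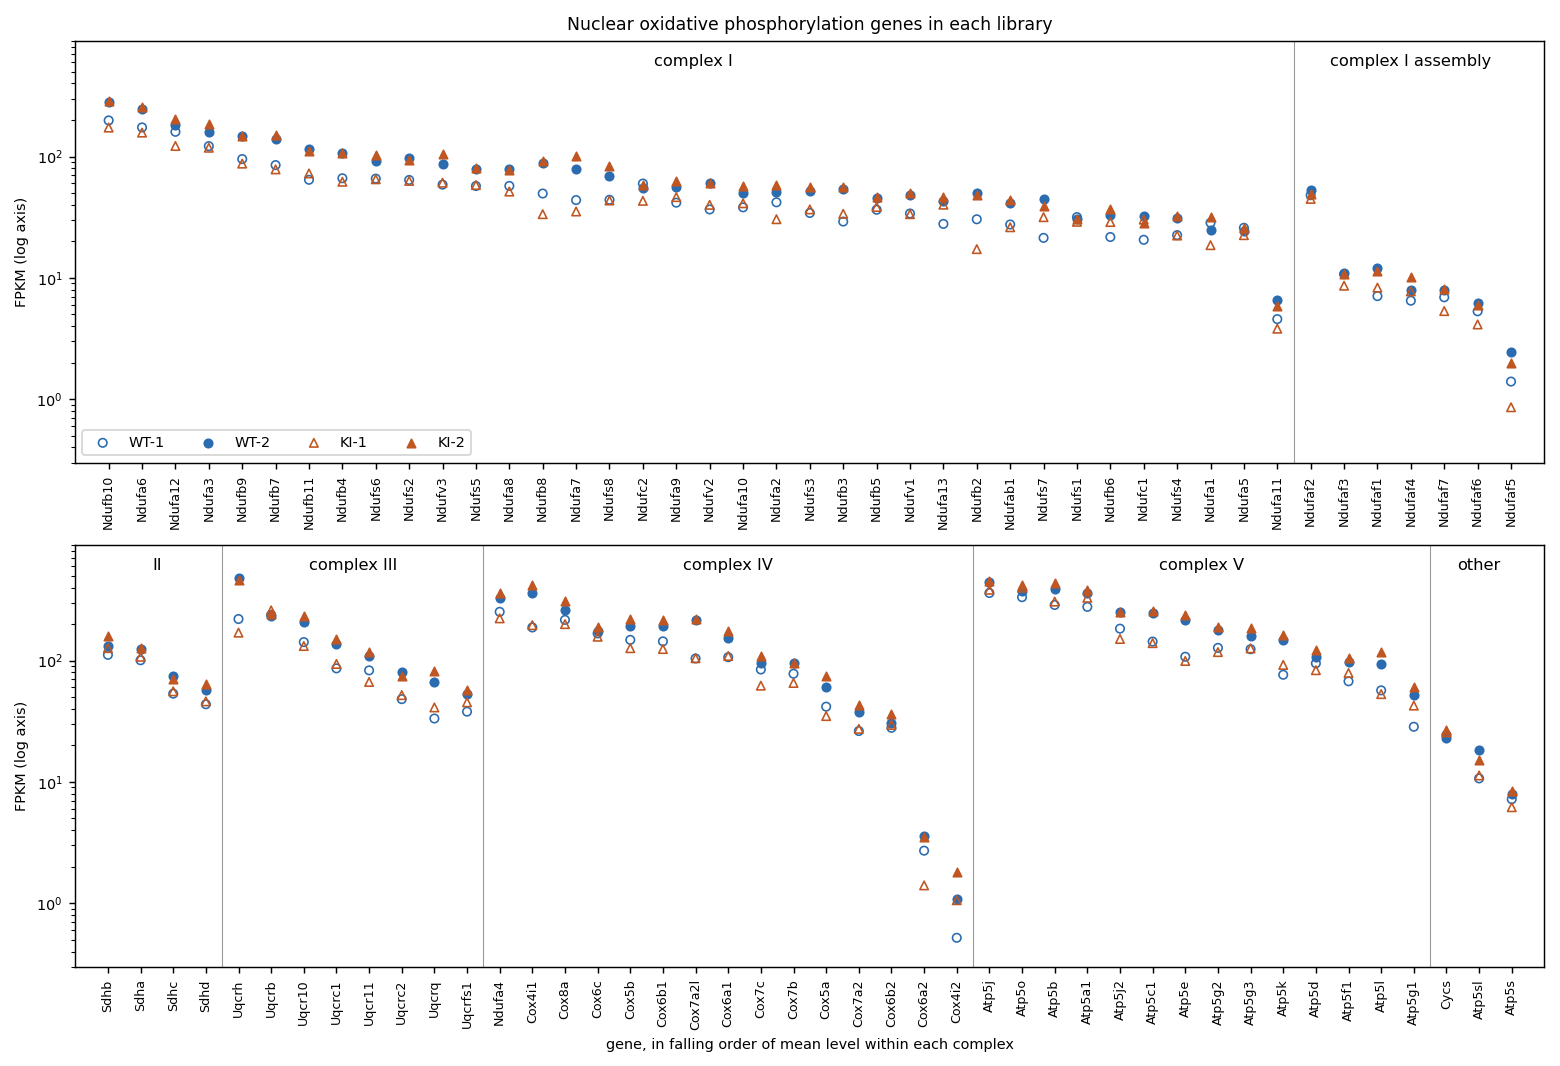
Level of each of the 87 genes as FPKM on a log axis, by complex and in falling order, with 1 point per library (circles for WT, triangles for KI, open for number 1 and filled for number 2). The 4 highest genes are of complex V, up to a mean of 409.6 FPKM for Atp5j, and Cox4i2, at 1.11 FPKM, is the lowest.

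The comparison of KI with WT asks whether a single mutant Asxl1 allele goes with another level of the respiratory genes. No member was called by limma at an adjusted p under 0.05, where 0% of the 11083 tested genes were called. At an unadjusted p under 0.05 there were 0 members, against 0.424% of all genes, and the smallest unadjusted p of a member was 0.221, for Cox4i2. Every adjusted p of a member from limma rounded to 1.0. By direction alone, 53 of 87 members were higher in KI, or 60.9%, against 52.1% of all genes, and the median log2 difference was 0.021 against 0.0075. The SE of a member's difference ran from 0.20 to 0.58 with a median of 0.31, more than the size of most of the differences below. With library number as a block beside genotype, the median SE was 0.087, and 7 of 87 members had an unadjusted p under 0.05, against 7.1% of all genes, while the smallest adjusted p of a member was 0.678 in limma. With 1 library left out the difference turned its sign for 35 of the 44 members named by rule, and the median of each complex took either sign. Such a fit has unequal numbers in its groups, so that the difference between library numbers enters by construction. These turns therefore do not measure how stable the difference between genotypes is. All differences are KI minus WT on the log2(FPKM + 1) scale.

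In complex I, 21 of 36 subunit genes were higher in KI and the median difference was 0.013. The 7 core genes had a median of 0.059 and the 29 accessory genes one of 0.0043. The furthest down was Ndufb2, an accessory subunit of the membrane arm, with 30.4 and 49.6 FPKM in WT-1 and WT-2 and 17.2 and 48.3 FPKM in KI-1 and KI-2, a difference of -0.41 (SE 0.50). KI-1 was the lowest library and WT-1 the next, and the difference was -0.78 within number 1 and -0.037 within number 2. Ndufa13, an accessory subunit also known as GRIM-19, had 27.8 and 42.9 FPKM in WT-1 and WT-2 and 40.1 and 45.9 FPKM in KI-1 and KI-2, a difference of 0.30 (SE 0.27). Here WT-1 was the low library, and the groups overlapped. Ndufb6 and Ndufc2, accessory subunits of the membrane arm, had differences of 0.28 (SE 0.28) and -0.20 (SE 0.24). The core gene Ndufs1, for the largest iron-sulfur subunit, was the only member with both KI libraries under both WT libraries, against 7.06% of all genes, with 31.7 and 30.7 FPKM in WT-1 and WT-2 and 28.9 and 30.7 FPKM in KI-1 and KI-2, where WT-2 and KI-2 differ only past the printed digits. Its difference was -0.063 (SE 0.20).

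The complex I assembly factors had the lowest median, -0.15, with 2 of 7 higher in KI. Ndufaf5, which modifies a core subunit during assembly, had 1.40 and 2.43 FPKM in WT-1 and WT-2 and 0.858 and 1.99 FPKM in KI-1 and KI-2, a difference of -0.28 (SE 0.35). Ndufaf6 had a difference of -0.18 (SE 0.26) and Ndufaf3 one of -0.15 (SE 0.23), both lower within each number. Ndufaf4 ran the other way, with 6.48 and 8.01 FPKM in WT-1 and WT-2 and 7.73 and 10.2 FPKM in KI-1 and KI-2 and a difference of 0.27 (SE 0.25), and Ndufaf1 had 0.055 (SE 0.32). The most abundant factor, Ndufaf2, held between 44.7 and 52.6 FPKM with a difference of -0.10 (SE 0.21). None of these differences passed the test, and each group overlapped the other.

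The 4 genes of complex II, the one complex with no mitochondrially encoded subunit, gave a median difference of 0.087. Sdhb, for the iron-sulfur subunit, had 111 and 131 FPKM in WT-1 and WT-2 and 127 and 159 FPKM in KI-1 and KI-2, a difference of 0.23 (SE 0.25). Sdha, for the flavoprotein that oxidises succinate, had 101 and 124 FPKM in WT-1 and WT-2 and 107 and 128 FPKM in KI-1 and KI-2, a difference of 0.066 (SE 0.24). Both genes were higher in KI within each number, while WT-2 lay above KI-1, so that the groups overlapped. The membrane anchor genes Sdhc and Sdhd had differences of -0.0015 (SE 0.26) and 0.11 (SE 0.26).

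In complex III, 6 of 8 genes were higher in KI and the median difference was 0.063. Uqcrb, for a small subunit near the quinone site, was one of 3 members whose KI libraries both lay above both WT libraries, against 6.39% of all genes, with 238 and 235 FPKM in WT-1 and WT-2 and 259 and 244 FPKM in KI-1 and KI-2 and a difference of 0.087 (SE 0.25). Uqcrq, for another small subunit, had 33.3 and 66.6 FPKM in WT-1 and WT-2 and 41.1 and 82.1 FPKM in KI-1 and KI-2, a difference of 0.30 (SE 0.45). Its libraries ordered by number before genotype, as they did for Uqcrh, with 220.1 and 478 FPKM in WT-1 and WT-2 and 169.9 and 458 FPKM in KI-1 and KI-2 and a difference of -0.22 (SE 0.58). The Rieske protein gene Uqcrfs1 had a difference of 0.17 (SE 0.26), Uqcr10 of 0.039 (SE 0.36) and Uqcr11 of -0.11 (SE 0.33).

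In complex IV, 9 of 15 genes were higher in KI, with a median difference of 0.021. The largest single difference of any member was that of Cox4i2, 0.43 (SE 0.32), at levels near the 1 FPKM minimum, and it was 0.44 within number 1 and 0.43 within number 2. Its partner Cox4i1 had 0.14 (SE 0.48). Cox6a2 had 2.71 and 3.58 FPKM in WT-1 and WT-2 and 1.40 and 3.52 FPKM in KI-1 and KI-2, a difference of -0.32 (SE 0.37), in which KI-1 was the low library. Cox6b2 had 27.9 and 30.4 FPKM in WT-1 and WT-2 and 29.5 and 36.5 FPKM in KI-1 and KI-2, a difference of 0.17 (SE 0.22), and Cox7b had -0.12 (SE 0.27). The abundant genes Ndufa4, once placed in complex I, and Cox8a had differences of -0.033 (SE 0.34) and 0.059 (SE 0.31).

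Complex V had the highest median, 0.12, with 11 of 14 genes higher in KI. With 1 library left out that median ran from -0.18 to 0.37, a range that the difference between numbers enters by construction. Atp5g1, one of the c subunit genes, had 28.5 and 52.3 FPKM in WT-1 and WT-2 and 42.6 and 60.4 FPKM in KI-1 and KI-2, a difference of 0.38 (SE 0.35), while Atp5g2 and Atp5g3 had -0.022 (SE 0.33) and 0.12 (SE 0.30). Atp5o had both KI libraries above both WT libraries, at 399 and 417 FPKM against 333 and 375, and a difference of 0.21 (SE 0.27). The peripheral stalk genes analysed here, Atp5f1, Atp5j and Atp5o, were higher in KI within both numbers, and Atp5h, for the stalk subunit d, is not analysed here. Atp5j2, for the small f subunit, was the furthest down, at -0.14 (SE 0.34). Cycs, the third member with both KI libraries above both WT libraries, had 24.4 and 23.1 FPKM in WT-1 and WT-2 and 25.6 and 27.0 FPKM in KI-1 and KI-2 and a difference of 0.14 (SE 0.20). Values are uncertain for members that could share reads with another locus. A named pseudogene exists for 10 members, Uqcrh, Cycs and Atp5c1 among them, and 18 members share over 5% of their exon bases with another gene, among them Atp5j, Atp5o, Uqcrb, Ndufb6 and Ndufa13, each with a gene on the opposite strand.

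Set within library numbers, the members did not move alike. Within number 1, 40 of 87 members were higher in KI (46.0%, against 53.2% of all genes), and within number 2, 67 were (77% against 49.9%). Higher in KI in both numbers were 32 members, or 36.8%, beside 28.7% of all genes. Lower in both were 12 members, or 13.8%, beside 25.5%. The most frequent other pattern was lower in KI within number 1 and higher within number 2, with 35 members, or 40.2%, beside 21.2%. These differences set 1 library against 1, so that no test applies within a number.

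This split was widest in complex IV, where 6 of 15 genes were higher in KI within number 1 and 14 within number 2, with median log2 differences of -0.12 and 0.19. Cox7c, one of its small subunits, had 84.4 and 96.4 FPKM in WT-1 and WT-2 and 62.1 and 109.9 FPKM in KI-1 and KI-2. KI-1 was the lowest of these libraries and KI-2 the highest. Complex I subunits split likewise, with 13 and 26 of 36 higher in KI and medians of -0.035 and 0.059. In complex V, 8 and 14 of 14 were higher, with medians of 0.055 and 0.13. Complexes II and III had medians above 0 in both numbers, 0.085 and 0.088 for II and 0.11 and 0.092 for III. With quantile scaling these were 0.11 and 0.053 for II and 0.14 and 0.052 for III. As deposited, the assembly factors were at -0.28 and -0.062.

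The counts moved with the scaling of the libraries, an alternative chosen after seeing the data. With quantile scaling 57 of 87 members were higher in KI within number 2 (65.5%, against 49.0% of all genes). With median scaling 72 were (82.8%, against 52.8% of all genes). Complex IV kept a count of 14 of 15 under both scalings, whereas complex V went from 14 of 14 to 10 with quantile scaling. Within number 1, 45 members were higher in KI with quantile scaling (51.7%, against 52.7% of all genes), and the complex IV median went from -0.12 to -0.026. Members lower in KI within number 1 and higher within number 2 then numbered 26, beside 2335 of all 11083 genes. With median scaling such members numbered 40, beside 2684 of all genes. Ndufa1, an accessory subunit of complex I, and Ndufs7, a core subunit, show the 2 opposite patterns. Ndufa1 had 28.4 and 24.8 FPKM in WT-1 and WT-2 and 18.6 and 31.7 FPKM in KI-1 and KI-2, and its difference was -0.59 within number 1 and 0.34 within number 2. Ndufs7 had 21.4 and 44.9 FPKM in WT-1 and WT-2 and 31.6 and 39.2 FPKM in KI-1 and KI-2, and its difference was 0.55 within number 1 and -0.19 within number 2. In Cox7c and Ndufa1 both WT libraries lay between the KI libraries, and in Ndufs7 both KI libraries lay between the WT libraries. These 3 genes were chosen after their values were seen.

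Across numbers the difference took the sign of the library number. KI-2 minus WT-1 had a median of 0.57 over the members and 0.27 over all genes. KI-1 minus WT-2 had a median of -0.50 over the members and -0.26 over all genes. In both crossed comparisons the library numbered 2 was the higher one at the median, once KI and once WT.

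**Figure D2:**
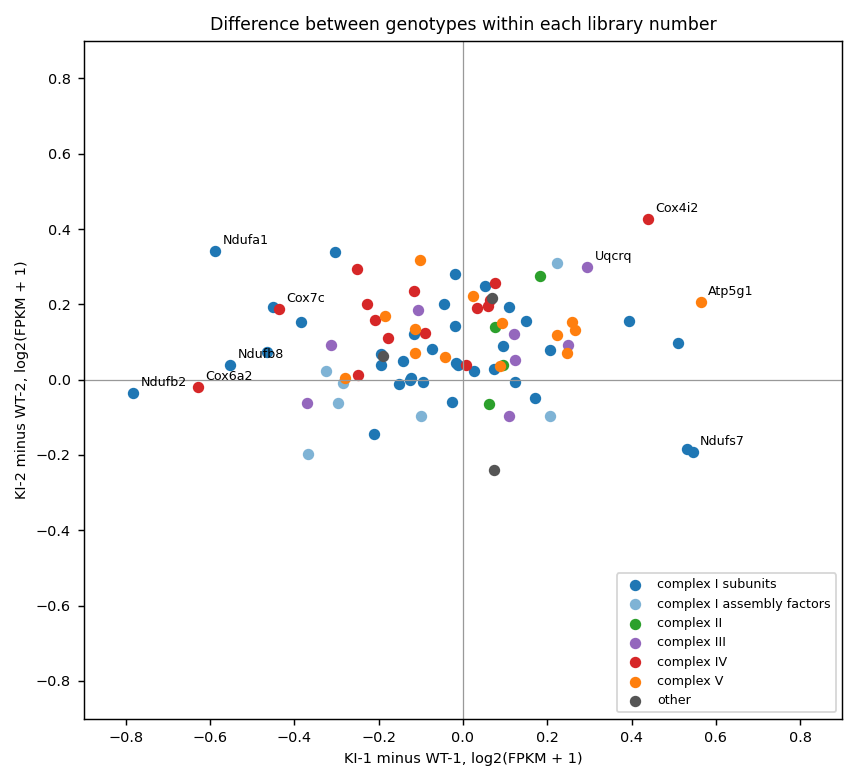
Difference of KI from WT in log2(FPKM + 1) within number 2 (vertical axis) against that within number 1 (horizontal axis), 1 point per member, coloured by complex. Of 87 members, 35 lie in the upper left part, lower in KI-1 than WT-1 and higher in KI-2 than WT-2, and 32 in the upper right.

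The difference between library numbers was far larger than that between genotypes. With number as the only term, limma called 65 of 87 members at an adjusted p under 0.05, all higher in the libraries numbered 2, beside 35.6% of all genes called higher and 4.6% called lower. Both libraries numbered 2 lay above both numbered 1 for 79 members, beside 63.5% of all genes. The median log2 difference was 0.54 for the members and 0.27 for all genes. Without WT replicate 2 the count was 44 members, beside 11.3% of all genes called higher, and without KI replicate 2 it was 32, beside 9.13%. Without WT replicate 1 it was 66, beside 35.6%, and without KI replicate 1 it was 65, beside 37.9%. The counts of members and of all genes thus fell with the same libraries left out.

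Since the libraries numbered 2 were higher for most genes, the same difference was read after scaling. With quantile scaling the median of all genes was 0.017 and that of the members 0.29, and 36 members rose and 0 fell, beside 9.3% of all genes called higher and 10.4% called lower. With median scaling 30 members rose, beside 9.12% of all genes, and 1 fell, Uqcrb, at -0.31 (adjusted p = 0.0422). As a share of the listed FPKM, the 87 genes held 2.13% and 2.18% of libraries WT-1 and KI-1, and 2.51% and 2.64% of libraries WT-2 and KI-2.

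By complex, the libraries numbered 2 were higher by a median log2 difference of 0.65 in complex III, with 7 of 8 genes called, 0.57 in complex IV (11 of 15), 0.57 in complex I subunits (30 of 36) and 0.52 in complex V (12 of 14). Complex II stood at 0.34 (3 of 4) and the assembly factors at 0.32 (1 of 7). The median of all genes was 0.27, and 35.6% of them were called higher. With quantile scaling, 17 of 36 complex I subunits, 0 of 7 assembly factors and 0 of 4 genes of complex II were called higher. In complexes III, IV and V these were then 6 of 8, 7 of 15 and 6 of 14, against 9.3% of all genes. Uqcrh rose most, from 220.1 and 169.9 FPKM in WT-1 and KI-1 to 478 and 458 FPKM in WT-2 and KI-2, a difference of 1.27 (SE 0.13, adjusted p = 0.00382). Atp5e, for the epsilon subunit in the stalk of the ATP synthase motor, rose from 108 and 99.3 FPKM in WT-1 and KI-1 to 217 and 238 FPKM in WT-2 and KI-2, by 1.13 (SE 0.086, adjusted p = 0.00260). In both genes each library numbered 2 lay above each library numbered 1. Cox7a2l rose by 1.06 (SE 0.071, adjusted p = 0.00225) and Cox4i1 by 1.01 (SE 0.094, adjusted p = 0.00342), and Atp5c1, for the gamma subunit that turns inside the motor, by 0.82 (SE 0.073, adjusted p = 0.00340). These 5 genes had the smallest p among the members.

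Some members were not called between numbers although partners in the same complex were, which does not show that their levels were equal. Uqcrb had 238 and 259 FPKM in WT-1 and KI-1 and 235 and 244 FPKM in WT-2 and KI-2, a difference of -0.054 (SE 0.080, adjusted p = 0.601), while Uqcrh and Uqcrq of the same complex rose. Cycs had -0.00085 (SE 0.10, adjusted p = 0.996) and Ndufs1 0.019 (SE 0.087, adjusted p = 0.873), and Atp5o 0.12 (SE 0.11, adjusted p = 0.418). With quantile scaling these differences were -0.31 for Uqcrb, -0.26 for Cycs, -0.24 for Ndufs1 and -0.10 for Atp5o, with adjusted p of 0.0554, 0.114, 0.0918 and 0.643 from limma. In complex IV, Cox6c and Cox6b2 were at 0.16 (SE 0.082, adjusted p = 0.161) and 0.21 (SE 0.11, adjusted p = 0.166). In complex I, Ndufc2 was at 0.16 (SE 0.15, adjusted p = 0.423). Uqcrb, Cycs, Ndufs1 and Atp5o are also the 4 members whose genotype groups did not overlap. Genotype groups of 2 libraries must overlap wherever the difference between numbers is larger in size than that between genotypes. Both readings of these genes thus rest on the same values and are not separate traits.

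Transcripts of the members are short, with a median length of 809 bases against 2848 for the tested genes with a length, and 59.8% of them are under 1000 bases against 7.15%. Their median GC content was 51.3% against 50.2%. Over all 10953 genes with a length the difference between numbers had a Spearman correlation of -0.34 with length and 0.36 with GC content, and over the 87 members -0.22 and 0.25. These are descriptions across genes that share the same 4 libraries. Transcript length and GC content thus moved with the difference between numbers, and their part in it was not tested. Of the marker lists, the 6 B cell markers and 8 of 10 gate and stem cell markers were called higher in the libraries numbered 2, beside 35.6% of all genes. Called higher were also 2 of 8 granulocyte-monocyte and 2 of 3 tested T and NK cell markers, 0 of 5 erythroid and 0 of 3 megakaryocyte markers, while 1 erythroid marker was called lower. The part of these cells was not tested.

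**Figure D3:**
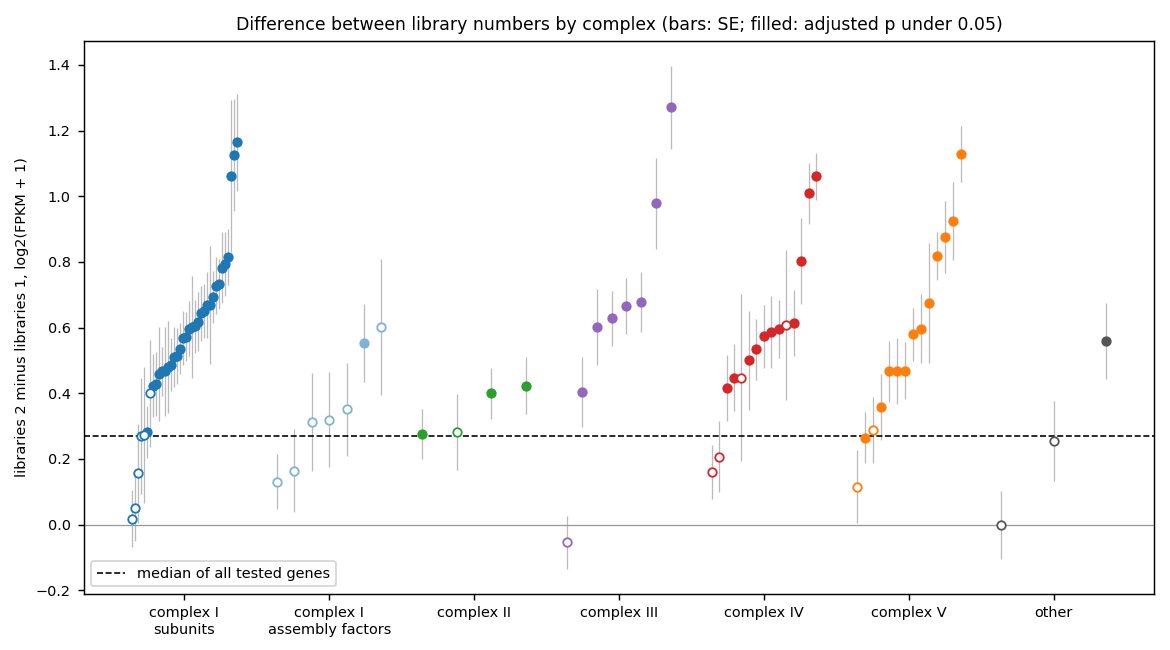
Difference of the libraries numbered 2 from those numbered 1 in log2(FPKM + 1) for each member by complex, with SE bars, filled points for an adjusted p under 0.05 and a dashed line for the median of all tested genes (0.27). Uqcrh is the highest at 1.27, and the assembly factors lie on both sides of the dashed line.

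Nuclear respiratory genes are known for promoters that bind NRF1, GABP of the ETS family, YY1 and CREB, which gives these genes a common set of regulators. RefSeq promoter windows (GRCm38.p6, 250 bases before to 50 after the start site) were at hand for 73 of the 87 genes, in 79 windows, and for 32851 windows in all. Both strands were searched for short motifs, chosen after the values were seen. Shown first are 4 windows, each with 1 or more of these motifs: Uqcrh and Atp5k as genes that rose in the libraries numbered 2, Ndufs6 as a complex I gene with sites for NRF1 and YY1, and Cycs as a member that was not called between numbers. Capitals mark the motifs, read 5′ to 3′ on the strand of the gene, which for all 4 is the minus strand. The windows lie at chr4:116075021-116075320 for Uqcrh, chr5:108434350-108434649 for Atp5k, chr13:73328433-73328732 for Ndufs6 and chr6:50566520-50566819 for Cycs.
Uqcrh: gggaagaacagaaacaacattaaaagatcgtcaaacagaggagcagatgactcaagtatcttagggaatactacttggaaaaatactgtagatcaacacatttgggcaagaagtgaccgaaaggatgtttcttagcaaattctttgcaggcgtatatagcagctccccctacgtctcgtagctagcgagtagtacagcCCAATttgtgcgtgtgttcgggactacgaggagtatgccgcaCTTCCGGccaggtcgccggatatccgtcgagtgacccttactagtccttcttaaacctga
Atp5k: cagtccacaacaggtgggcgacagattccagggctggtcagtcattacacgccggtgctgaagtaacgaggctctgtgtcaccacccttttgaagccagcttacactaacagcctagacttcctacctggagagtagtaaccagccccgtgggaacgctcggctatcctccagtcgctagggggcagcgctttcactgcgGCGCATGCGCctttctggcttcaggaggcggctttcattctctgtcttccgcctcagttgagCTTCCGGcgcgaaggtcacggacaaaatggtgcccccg
Ndufs6: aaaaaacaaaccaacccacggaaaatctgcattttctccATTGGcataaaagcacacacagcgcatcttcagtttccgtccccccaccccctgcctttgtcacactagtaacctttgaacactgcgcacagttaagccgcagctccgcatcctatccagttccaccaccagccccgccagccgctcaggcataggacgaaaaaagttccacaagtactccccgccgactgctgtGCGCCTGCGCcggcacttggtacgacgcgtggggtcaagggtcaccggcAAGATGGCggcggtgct
Cycs: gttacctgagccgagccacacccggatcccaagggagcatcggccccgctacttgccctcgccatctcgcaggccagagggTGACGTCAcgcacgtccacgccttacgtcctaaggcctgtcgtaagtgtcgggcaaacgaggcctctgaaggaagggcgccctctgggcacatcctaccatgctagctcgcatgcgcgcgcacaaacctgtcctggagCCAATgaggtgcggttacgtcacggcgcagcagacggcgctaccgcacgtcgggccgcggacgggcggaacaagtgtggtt

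In the Uqcrh window the capitals mark CCAAT and, 10 bases before the start site, an ETS core on the other strand. Atp5k, for the e subunit of the ATP synthase membrane part, holds an NRF1 core 50 bases before the start and an ETS core, on the other strand, 13 bases after it. Ndufs6, an accessory subunit needed for complex I assembly, holds a CCAAT box and an NRF1 core, both on the other strand, and a YY1 motif after the start site. Cycs holds a cyclic AMP response element and CCAAT. Atp5k had 76.4 and 92.1 FPKM in WT-1 and KI-1 and 148 and 162 FPKM in WT-2 and KI-2, a difference between numbers of 0.88 (SE 0.11, adjusted p = 0.00419), and Ndufs6 had 0.57 (SE 0.082, adjusted p = 0.00541). Each match is a match of letters and no evidence of binding.

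The NRF1 core, spelled GCGCA and GCGC with 1 free base between them, was found in 19 of 79 windows (24.1%), against 4.60% of all windows. The YY1 motif AAGATGGC was in 12 of 79 windows (15.2%), against 2.75% of all windows, the ETS core CCGGAAG in 16 of 79 windows (20.3%), against 8.86% of all windows, and the cyclic AMP response element TGACGTCA in 5 of 79 windows (6.33%), against 1.79% of all windows. The E-box CACGTG was in 9 of 79 windows (11.4%), against 7.15% of all windows, CCAAT in 33 of 79 windows (41.8%), against 37.4% of all windows, and the TATA box TATAAA in 6 of 79 windows (7.59%), against 13.6% of all windows. The windows of all genes were not matched to those of the members in GC content or RNA level. Whether the gaps are particular to respiratory genes was not tested. In all 11 spellings were counted, and those marked in capitals were kept after the counts were seen. The gap for the ETS motif depended on the spelling. With CCGGAAGT it was in 4 of 79 windows (5.06%), against 3.89% of all windows, and with CCGGAAGTG in 2 of 79 windows (2.53%), against 2.03% of all windows. The NRF1 motif with T at the free base was in 7 of 79 windows (8.86%), against 0.971% of all windows, and AAGATGGCG in 9 of 79 windows (11.4%), against 1.40% of all windows. The YY1 spelling AAGATGGCG holds AAGATGGC within it, and the longer NRF1 and ETS spellings likewise lie within the matches of the shorter ones.

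Members with and without the NRF1 core had nearby medians in the data, and for some other motifs the medians lay further apart. The median difference between numbers was 0.54 for the 18 genes with the NRF1 core and 0.54 for the 55 without it. For the ETS core CCGGAAG the medians were 0.60 over 16 genes and 0.51 over 57, and for YY1 0.51 over 11 and 0.54 over 62. For the cyclic AMP response element they were 0.43 over 5 and 0.56 over 68, and for the TATA box 0.82 over 5 and 0.52 over 68. The E-box had 0.56 over 7 and 0.52 over 66, and CCAAT 0.58 over 32 and 0.51 over 41. The median difference of KI from WT was 0.043 with and 0.022 without the NRF1 core. With and without the other motifs it was 0.078 and 0.018 for ETS and 0.063 and 0.022 for YY1. It was 0.14 and 0.023 for the cyclic AMP response element and 0.11 and 0.023 for the E-box. For CCAAT it was 0.057 and 0.021, and for the TATA box 0.078 and 0.023. No test was made of these medians. The mRNAs of the factors themselves lay between 14.9 and 18.2 FPKM for Nrf1, 19.3 and 20.8 for Gabpa and 33.8 and 41.2 for Yy1, genes named outside the naming rule because the motifs are theirs.

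**Figure D4:**
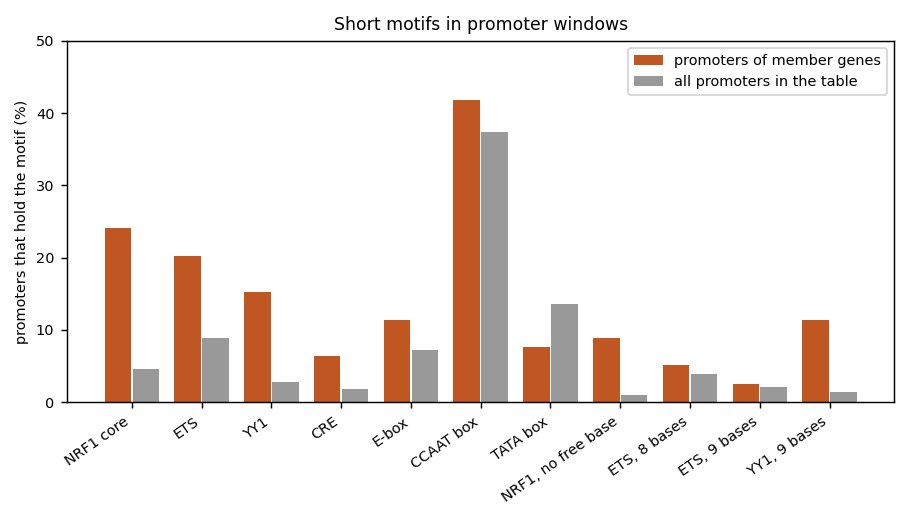
Percentage of promoter windows that hold each of 11 motif spellings, for the 79 windows of member genes (orange bars) and for all 32851 windows (grey bars). The NRF1 core stands at 24.1% against 4.60%, and the longest ETS spelling at 2.53% against 2.03%.

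Genes around the respiratory chain gave the same picture between genotypes, with 0 called in each list and 0 at an unadjusted p under 0.05. Of the assembly factors outside the rule, 22 of 41 tested genes were higher in KI (median 0.0014). The 2 with the smallest p were Cox18, which inserts a complex IV subunit into the membrane, at -0.59 (SE 0.31), and Acn9, which serves complex II assembly, at 0.34 (SE 0.25). For pyruvate entry and the citric acid cycle, 13 of 19 tested genes were higher in KI (median 0.031), with Pdhx at 0.31 (SE 0.24) and Idh3g at 0.19 (SE 0.26). For coenzyme Q synthesis, 6 of 13 tested genes were higher in KI (median -0.012), with Coq10b at 0.26 (SE 0.26) and Pdss1 at 0.26 (SE 0.27). Among regulators of respiratory genes and of mitochondrial DNA, 12 of 20 tested genes were higher in KI (median 0.048), with Mterf1a at -0.55 (SE 0.30) and Mterfd1 at -0.23 (SE 0.22). On the list of carriers and outer membrane channels, 9 of 12 tested genes were higher in KI (median 0.058). Slc25a13 was at 0.19 (SE 0.27) and Slc25a12 at 0.13 (SE 0.23). That list also holds Cyc1 and Atpif1, the gene for the ATP synthase inhibitor, which are neither carriers nor channels. The mitochondrially encoded subunits are not analysed here.

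Between library numbers, 22 of 41 assembly factors, 9 of 19 citric acid cycle genes and 6 of 13 coenzyme Q genes were called higher in number 2. So were 9 of 12 genes on the list of carriers and channels, Cyc1 and Atpif1 among the 9, and 4 of 20 regulators. Of all genes 35.6% were called higher. One regulator was called lower, as were 4.6% of all genes. The medians were 0.42, 0.29, 0.40, 0.40 and 0.16 in that order, against 0.54 for the members and 0.27 for all genes.

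In the authors' deposited table, which compares KI with WT per transcript, 24 of the 111 transcripts of the members reached p under 0.05 before adjustment, 14 up and 10 down in KI. Over all transcripts of the authors' deposited table these shares were 11.1% and 10.5%. After adjustment the authors' deposited table called 0 of the member transcripts and 0.0161% of all, and the smallest adjusted p of a member transcript was 0.115. That table rests on the authors' normalized log2 values, while the values above rest on FPKM.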

How the data were processed

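RNA sequencing of mouse LSK cells, 2 WT and 2 KI libraries, was analysed from the authors' table, which holds 1 row per RefSeq transcript (18691 rows). TopHat, Cufflinks and the build mm10 (GRCm38) are named per the submitters' processing notes, and their versions and settings are not given in the sources used here. Per the file headers, the authors deposited FPKM and normalized log2 values for each library. The authors also deposited a comparison of KI with WT with a signed fold and a t statistic (both used as a score), p-values and adjusted p-values. How the log2 values were normalized is not given in the sources used here.

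Transcript FPKM was added up per symbol and put on the log2(FPKM + 1) scale, on which changes of low genes come out too small. In R 4.3.3, limma 3.58.1 with a trend in the prior variance was fitted to the 11083 genes with a mean of at least 1 FPKM, with two-sided tests and Benjamini-Hochberg adjustment over all of them at 0.05. Genotype was the only term in one fit and library number the only term in the other. A table per gene had been assumed and the table is per transcript, hence the summing. The fit was also run on simulated data, and the outcome is not given here. Alternatives were a replicate block, a pseudocount of 0.1, no filter, quantile and median scaling, the authors' log2 values, and each library left out. The authors' log2 values were averaged over the transcripts of a symbol without weights. Lengths, GC content and exon overlaps came from the GENCODE annotation and positions from RefSeq, both on GRCm38.

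The members, lists and tests were chosen with earlier results of these data known. Placing Ndufa4 in complex IV and Atp5s and Atp5sl outside complex V, the motif search and the windows shown were settled after the values were seen. The naming rule took Asxl1, the 3 most abundant members of each complex, the 2 higher and 2 lower in KI with the smallest p, all of complex II and Cycs, alternative forms of 1 subunit, the 5 with the smallest p between numbers, and up to 2 genes per other list. Members outside it are named for counts of 5 or fewer, as partners in a complex or for the promoter windows, after their values were seen.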

Additional observations from a re-analysis of the deposited data

How the results depend on the processing

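With a replicate block for the library number, limma called 1 gene between KI and WT, which was no member, and the smallest adjusted p was 0.678 among the members. The deviations of same-numbered libraries from their group means had a Pearson correlation of 0.691 over 11083 genes, equal for both numbers by construction with 2 libraries a group, and the labels do not say that the numbers pair the libraries. Leaving out 1 library, the count between genotypes ran from 7 to 37 and that between numbers from 1162 to 4808, against 0 and 4452 with all libraries. Such a fit has unequal numbers in its groups, so that the difference between numbers enters that of genotype by construction, and the lone library is assumed to vary like the other group. With quantile and median scaling the count between numbers was 2187 and 2163. With quantile scaling the medians between numbers were 0.34 in complex I subunits, 0.061 in assembly factors, 0.12 in complex II, 0.41 in complex III, 0.31 in complex IV and 0.29 in complex V. With median scaling the medians between numbers were 0.31 in complex I subunits, 0.063 in assembly factors, 0.085 in complex II, 0.39 in complex III, 0.32 in complex IV and 0.27 in complex V. With 1 library left out the medians between genotypes ran from -0.27 to 0.33 for complex I subunits, -0.30 to 0.061 for assembly factors, -0.089 to 0.27 for complex II, -0.24 to 0.39 for complex III, -0.39 to 0.37 for complex IV and -0.18 to 0.37 for complex V, so that each took either sign. Those between numbers ran from 0.53 to 0.59 for complex I subunits, 0.19 to 0.45 for assembly factors, 0.30 to 0.40 for complex II, 0.60 to 0.69 for complex III, 0.47 to 0.66 for complex IV and 0.45 to 0.59 for complex V. The sign of a difference of KI from WT turned with the authors' log2 values for Atp5e -0.0015, Atp5j -0.18, Cox6b1 0.0027. In that setting the value of a gene was the unweighted mean over its transcripts. For Atp5j the transcript that held 72.4% to 89.1% of its FPKM had a signed fold of 1.09 in the authors' comparison. Its other transcripts had -1.30 and -1.21. The sign of the difference between numbers turned with quantile scaling for Atp5o -0.10, Cox6b2 -0.056, Ndufaf2 -0.12, Ndufaf3 -0.093, Ndufc2 -0.093. That between numbers turned with median scaling for Atp5o -0.14, Cox6b2 -0.049, Ndufaf2 -0.13, Ndufaf3 -0.092, Ndufc2 -0.10. With 1 library left out, the difference of KI from WT turned its sign, with these ranges: Atp5b -0.13 to 0.37, Atp5c1 -0.43 to 0.44, Atp5e -0.62 to 0.64, Atp5g1 -0.042 to 0.81, Atp5g2 -0.36 to 0.31, Atp5g3 -0.16 to 0.40, Atp5j -0.083 to 0.21, Atp5j2 -0.51 to 0.23, Cox4i1 -0.40 to 0.68. Further ranges were Cox6a1 -0.23 to 0.45, Cox6a2 -0.78 to 0.13, Cox6b1 -0.42 to 0.37, Cox7a2 -0.19 to 0.45, Cox7a2l -0.52 to 0.56, Cox7b -0.39 to 0.16, Cox8a -0.25 to 0.37, Ndufa12 -0.48 to 0.25, Ndufa4 -0.37 to 0.31. Further ranges were Ndufa6 -0.40 to 0.30, Ndufaf1 -0.30 to 0.41, Ndufaf3 -0.30 to 0.0037, Ndufaf5 -0.63 to 0.061, Ndufaf6 -0.40 to 0.039, Ndufb10 -0.45 to 0.29, Ndufb2 -1.13 to 0.31, Ndufb6 -0.013 to 0.56, Ndufc2 -0.41 to 0.018. Further ranges were Sdha -0.086 to 0.22, Sdhc -0.23 to 0.23, Sdhd -0.12 to 0.34, Uqcr10 -0.37 to 0.45, Uqcr11 -0.51 to 0.29, Uqcrfs1 -0.071 to 0.41, Uqcrh -0.93 to 0.50, Uqcrq -0.19 to 0.79. Between numbers the sign turned for Atp5o -0.014 to 0.25, Cycs -0.11 to 0.11, Ndufc2 -0.076 to 0.39, Uqcrb -0.12 to 0.0075. Pseudocount and filter changed no sign of a named member. The FPKM unit hides the depth, so that no counting error could be given.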

Other observations

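For 14 of the 87 genes the table held more than 1 transcript, and 2 whose transcript shares moved between libraries were picked after their values were seen. The less abundant of the 2 transcripts of Atp5g1 held 8.35% and 28.9% of the gene's FPKM in the WT libraries, by number, and 21.7% and 29.3% in the KI libraries. The less abundant transcript of Cox4i1 held 17.5% and 1.65% in the WT libraries and 4.77% and 4.46% in the KI libraries. In both genes WT-1 stood apart from the other 3 libraries. That was not so for 1 transcript of Cox6b2, which held 9.27% in KI-1, 36.1% in KI-2 and 43.5% and 49.1% in WT-1 and WT-2. Shares of this kind rest on how reads were divided between overlapping transcripts, and no test of them was made.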
